A study of Capra hircus with 11 samples.

Results

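The cells described here are the KRT14-high barcodes of the CiMEC table, 583 of the 4861 CiMEC barcodes with at least 500 detected genes (11.99%, exact 95% interval 11.1% to 12.9%). They were selected on their KRT14 UMIs alone: a barcode had to hold at least 8. A UMI, or unique molecular identifier, stands for 1 captured RNA molecule. They were set against 3222 KRT14-low CiMEC barcodes, which held at most 1 KRT14 UMI. The 1056 barcodes with 2 to 7 KRT14 UMIs belonged to neither set, and 327 barcodes with under 500 genes were left out. The 5 tables of the series held 41854 barcodes in all.

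The series followed goat (Capra hircus) ear fibroblasts, GEFs, placed in BFRTV, a medium of small molecules meant to turn them into mammary epithelial cells, by 10x Genomics 3′ single-cell RNA sequencing. CiMECs were the chemically induced cells kept in culture and passaged after day 8 of BFRTV, and the labels gave a single CiMEC sample. The other groups were BFRTV8d, cells after 8 days of induction (2 samples), BFRTV4d, after 4 days (3 samples), BFRTV0d, ear fibroblasts at day 0 (3 samples), and GMECs, goat mammary epithelial cells of natural origin, not induced (2 samples). Each group came as 1 pooled table whose barcodes named no sample. KRT14-high and KRT14-low CiMECs therefore shared 1 library, and no replicate of the comparison existed. Cells are not replicates, so no p-value is given. Intervals are exact 95% intervals that cover counting error only, and the spread between cultures was not measured.

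Keratins pair up in epithelial cells. KRT5 and KRT14 form the filaments of basal cells, the layer that rests on the basement membrane, whereas KRT8, KRT18, KRT19 and KRT7 are the keratins of simple and luminal epithelium. Basal cells hold on to the membrane through hemidesmosomes, built from the integrin pair ITGA6 and ITGB4, the collagen COL17A1 and the linkers PLEC and DST, and these bind laminin-332, whose chains include LAMA3 and LAMB3. In the mammary gland the basal layer holds the contractile myoepithelial cells, while the luminal layer makes milk.

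KRT14 was spread unevenly over the CiMECs. Of the barcodes with at least 500 genes, 2357 (48.5%) had no KRT14 UMI, 865 had 1, 658 had 2 to 3, 398 had 4 to 7, 298 had 8 to 15, 166 had 16 to 29, and 119 had 30 or more. There was no gap in this distribution at the limit of 8 UMIs. The KRT14-high barcodes held 77.5% of all KRT14 UMIs in the CiMEC table, barcodes under 500 genes included. They had a median of 15 KRT14 UMIs per barcode and a highest value of 493. The 58 barcodes just outside the limit (7 KRT14 UMIs) had 771.1 CPM of KRT5 and 29.7 CPM of COL17A1, and the 57 just inside it (8 UMIs) had 869.5 CPM of KRT5 and 34.4 CPM of COL17A1, where CPM is UMIs of a gene per 1000000 UMIs of the set.

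A limit on UMIs also selects for depth. KRT14-high barcodes had a median of 27824 UMIs (974 to 99937), against 14773 in KRT14-low barcodes (652 to 90032). The share of barcodes called KRT14-high was 1.46% (5 of 343) between 500 and 2000 UMIs, 7.83% (108 of 1380) between 10000 and 20000, and 31.1% (117 of 376) at 40000 or more. For the comparison equal numbers of both were therefore drawn in narrow bins of total UMIs, which left 567 of each, with medians of 27545 UMIs in KRT14-high and 27270 in KRT14-low barcodes, and 3449 and 3404 detected genes. Ribosomal protein genes took 28.5% of the UMIs in the matched KRT14-high barcodes and 25.9% in the KRT14-low ones.

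**Figure D1:**
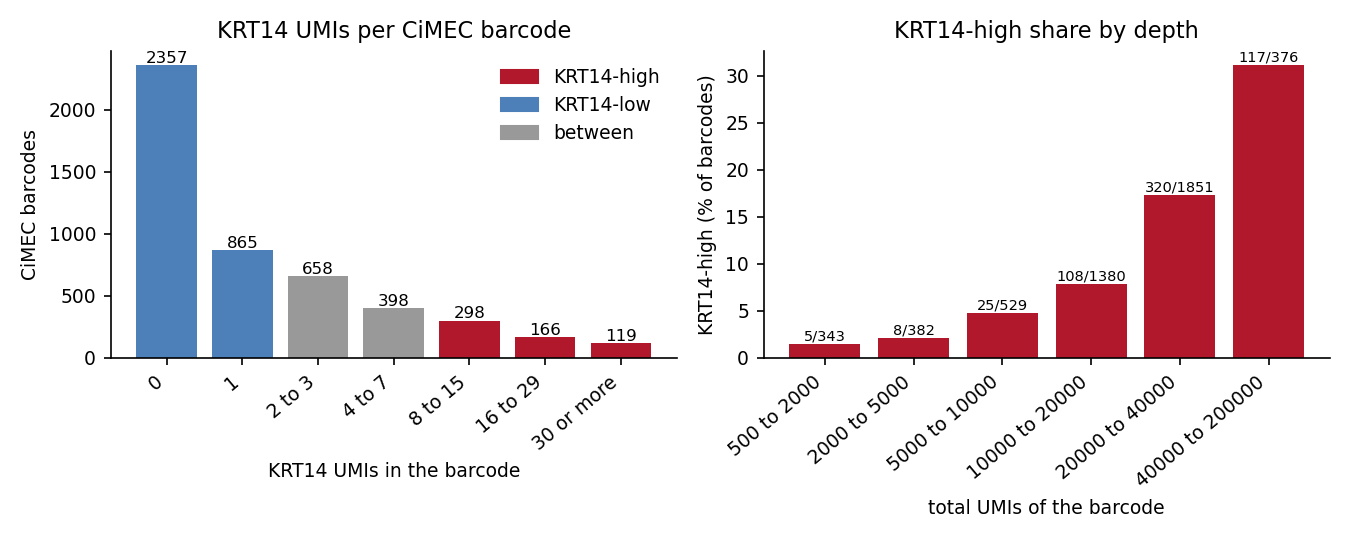
KRT14 UMIs per CiMEC barcode. Left, number of barcodes (y axis) by their KRT14 UMIs (x axis), with the KRT14-high classes in red, the KRT14-low classes in blue and the barcodes between in grey. Right, percent of barcodes that were KRT14-high (y axis) by total UMIs (x axis), with the counts above each bar. The KRT14-high share was 1.46% in the shallowest class and 31.1% in the deepest.

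The KRT14-high cells were epithelial, and they kept luminal keratins. KRT8 was found in all 583 of them, KRT18 in 581 and KRT5 in 582, so 580 members had both KRT5 and KRT18. This was not particular to them. Among the 567 matched KRT14-low cells KRT8 was found in 567, KRT18 in 562 and KRT5 in 543. At matched depth KRT8 stood at 5598.1 CPM in KRT14-high and 4827.7 CPM in KRT14-low cells (1.16-fold, 1.15 to 1.17), KRT18 at 3976.1 and 3808.0 CPM (1.04-fold), KRT19 at 3224.5 and 2662.5 CPM (1.21-fold) and KRT7 at 1755.6 and 1683.4 CPM (1.04-fold). EPCAM, an adhesion protein of epithelial cells, was at 244.1 CPM in KRT14-high and 318.4 CPM in KRT14-low cells (0.77-fold, 0.74 to 0.80). Of the 10 luminal genes that could be compared, none differed 1.5-fold or more, and their median log2 fold was 0.10. Few of all genes compared did so either, 2.19% on the higher and 1.3% on the lower side. Luminal genes under 10 CPM in both sets went both ways, with MUC1 at 1.65-fold (1.21 to 2.26) and ELF3 at 0.48-fold (0.24 to 0.94).

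Markers of fibroblasts other than VIM, and of immune, endothelial and pigment cells, were scarce. The fibroblast collagens COL1A1 and COL3A1 had no UMI in the 567 matched KRT14-high cells, and COL1A2 had 1. In the matched KRT14-low cells COL1A1 had 131 UMIs, of which 130 lay in 1 barcode. THY1, another fibroblast marker, was more frequent in KRT14-high cells. It was in 3.35% of them (2.03% to 5.18%) and in 0.71% of KRT14-low cells (0.19% to 1.80%), at 1.18 and 0.249 CPM. VIM, an intermediate filament of mesenchymal and cultured cells, was in 98.1% of KRT14-high and 96.5% of KRT14-low cells. The 5 contractile genes of myoepithelium with at least 10 CPM in either set differed by less than 1.2-fold. Among them TAGLN was at 2606.4 CPM in KRT14-high and 2371.6 CPM in KRT14-low cells (1.10-fold) and MYL9 at 681.0 and 609.4 CPM (1.12-fold). ACTA2, smooth muscle actin, was at 29.2 and 25.1 CPM (1.17-fold, 1.02 to 1.34). Contractile genes under 10 CPM in both sets went both ways. OXTR was at 1.78-fold (1.21 to 2.67), LMOD1 at 1.33-fold and MYLK at 1.22-fold. CNN1 was at 0.67-fold (0.33 to 1.31), TPM2 at 0.20-fold and ACTG2 at 0.17-fold. Of the 93 TPM2 UMIs in KRT14-low cells 84 lay in 1 barcode. The ACTA2 value is uncertain, since 1 KRT14-low barcode held 95 of the 402 ACTA2 UMIs of its set, and with KRT14-high set at 16 UMIs or more the log2 fold was 1.12. CD74 of immune cells, VWF of endothelium and PMEL of pigment cells were all at 2.43 CPM or less in KRT14-high cells. Many of the textbook markers of each type, the caseins among them, were not analysed here.

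Few genes separated KRT14-high from KRT14-low CiMECs. Of 5063 genes with at least 10 CPM in either set, KRT14 left out, 24 reached 2-fold or more on the higher side in KRT14-high cells (0.474% of the genes compared) and 13 on the lower side (0.257%). At 1.5-fold the numbers were 111 higher (2.19%) and 66 lower (1.3%). The median log2 fold over all genes was 0.002, with quartiles of -0.15 and 0.16. On CPM without KRT14 and the ribosomal protein genes, which took unequal shares of the 2 sets, 36 genes were at least 2-fold higher and 14 lower.

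The genes of the basal layer stood on the higher side. All 12 compared genes of the basal keratin and hemidesmosome list lay above 1, 5 of them at least 2-fold and 7 at least 1.5-fold, with a median log2 fold of 0.68. On CPM without KRT14 and the ribosomal protein genes the median was 0.81. The list held 20 genes besides KRT14, of which 17 were analysed and 12 reached 10 CPM. The other 5, TP63, JAG2, CDH3, SNAI2 and DST, were under that level in both sets.

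KRT5, the partner of KRT14, was the most abundant of them. It stood at 1277.8 CPM in KRT14-high and 541.5 CPM in KRT14-low cells (2.36-fold, 2.30 to 2.42), and the median barcode held 26 KRT5 UMIs in KRT14-high and 10 in KRT14-low cells. The 2 sets overlapped widely, from 0 to 221 UMIs in KRT14-high and 0 to 92 in KRT14-low barcodes. KRT6A, a keratin of activated and wounded epidermis, stood at 184.5 CPM in KRT14-high and 61.0 CPM in KRT14-low cells (3.03-fold, 2.82 to 3.26). It was found in 76.4% of KRT14-high and 48.9% of KRT14-low barcodes.

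The hemidesmosome proteins differed to unequal degrees. COL17A1 was at 74.1 CPM in KRT14-high and 24.3 CPM in KRT14-low cells (3.05-fold, 2.72 to 3.43), whereas ITGB4 was at 52.9 and 31.4 CPM (1.69-fold), ITGA6 at 35.8 and 23.5 CPM (1.52-fold) and PLEC at 34.2 and 25.5 CPM (1.34-fold). The tetraspanin CD151, which associates with these integrins, was at 350.1 and 288.6 CPM (1.21-fold), and ITGA3, the other laminin-binding alpha chain, at 192.4 and 149.0 CPM (1.29-fold).

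Both of these laminin-332 chains were likewise higher. LAMA3 had 96.2 CPM in KRT14-high and 35.5 CPM in KRT14-low cells (2.71-fold, 2.46 to 2.99), and LAMB3 had 223.1 and 155.2 CPM (1.44-fold, 1.37 to 1.51). LAMA3 was in 81.5% of KRT14-high and 56.4% of KRT14-low barcodes. After every barcode was thinned to 5000 UMIs the shares for LAMA3 were 36.8% and 16.6%, those for COL17A1 26.2% and 12.3%, and those for KRT5 94.8% and 78.4%. No cell type that should lack these genes was numerous enough in the CiMEC table to measure the share that free RNA alone gives.

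Per barcode, the 17 basal genes together had a median of 22.3 UMIs per 10000 in KRT14-high cells (3.16 to 372.5) and 12.6 in KRT14-low cells (0 to 104.0). The median KRT14-high barcode held UMIs of 9 of the 17 genes and the median KRT14-low barcode of 7. Of the KRT14-low cells 11.5% lay above the KRT14-high median, so the 2 sets were shifted against each other and overlapped.

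The largest fold on the higher side was that of LOC102188015, which the reference tables list as protein coding and give no name. It stood at 854.6 CPM in KRT14-high and 131.4 CPM in KRT14-low cells (6.50-fold, 6.21 to 6.81). It was detected in 62.3% of KRT14-high and 50.1% of KRT14-low barcodes, and both had a median of 1 UMI. Its counts were concentrated in few barcodes: the highest alone held 9.75% of its UMIs in KRT14-high and 10.1% in KRT14-low cells. LOC102177275, an unnamed gene that lies near KRT14 in the type I keratin cluster of the RefSeq goat annotation, differed less and more evenly, with 3198.4 CPM in KRT14-high and 1514.3 CPM in KRT14-low cells (2.11-fold, 2.08 to 2.14) and a median of 68 against 28 UMIs. Whether reads of near-identical keratins were shared between KRT14 and LOC102177275 could not be checked from the counts.

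The other genes on the higher side had varied roles. ADIRF, adipogenesis regulatory factor, had 496.8 CPM in KRT14-high and 172.0 CPM in KRT14-low cells (2.89-fold), AHCY, the enzyme that clears S-adenosylhomocysteine, had 395.1 and 152.2 CPM (2.60-fold), and LY6G6C, of the LY6 surface proteins, had 532.7 and 259.8 CPM (2.05-fold). The gap junction protein GJB2 had 76.1 CPM in KRT14-high and 31.9 CPM in KRT14-low cells (2.38-fold). Lower in abundance were PTHLH, parathyroid hormone-related protein, with 20.5 CPM in KRT14-high and 5.17 CPM in KRT14-low cells (3.96-fold, 3.10 to 5.09), the lysyl oxidase LOXL4 with 12.2 and 3.12 CPM (3.91-fold), adrenomedullin, ADM, with 12.3 and 3.30 CPM (3.73-fold) and the gelatinase MMP9 with 12.5 and 3.49 CPM (3.58-fold). Of the PTHLH UMIs in KRT14-low cells 44.6% lay in 5 barcodes. For LOXL4 1 barcode held 32% of the KRT14-low UMIs and the 5 highest held 46%. Part of these folds rested on a small cluster that held 59 of the KRT14-high cells. Without it LOXL4 was at 3.06-fold, PTHLH at 2.55-fold, ADM at 2.26-fold, AHCY at 1.93-fold, GJB2 at 1.46-fold and MMP9 at 1.24-fold.

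**Figure D2:**
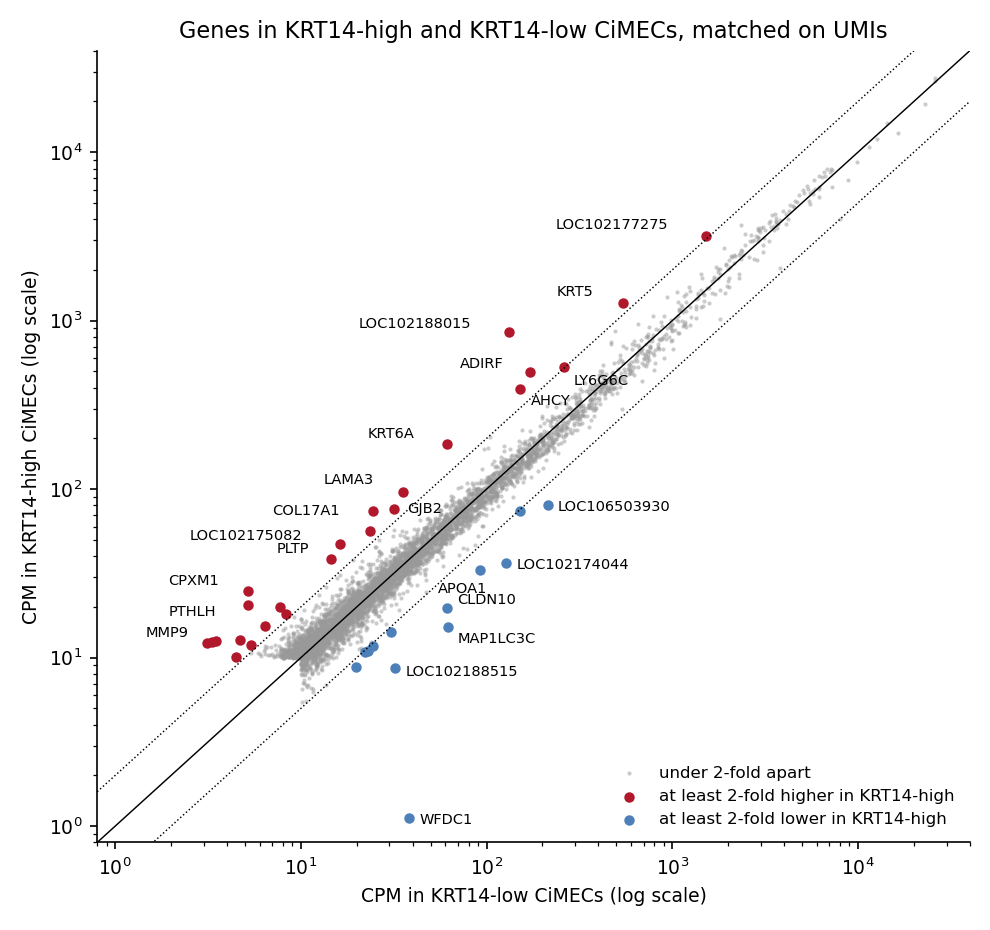
CPM of the 5063 compared genes in 567 KRT14-high CiMECs (y axis, log scale) and 567 KRT14-low CiMECs (x axis, log scale) matched on total UMIs. Each point is a gene, the solid line marks equal CPM and the dotted lines 2-fold. The 24 genes 2-fold or more above in KRT14-high cells are red, the 13 below are blue, and most of them are named; LOC102188015, COL17A1, KRT6A, KRT5 and LAMA3 stand above the line.

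On the lower side were MAP1LC3C, an autophagy protein of the LC3 family, with 15.3 CPM in KRT14-high and 61.6 CPM in KRT14-low cells (0.25-fold, 0.22 to 0.29), the tight junction claudin CLDN10 with 19.8 and 61.3 CPM (0.32-fold, 0.28 to 0.37) and the apolipoprotein APOA1 with 33.03 and 91.93 CPM (0.36-fold, 0.32 to 0.40). CLDN10 was found in 21.5% of KRT14-high and 46.9% of KRT14-low barcodes, and MAP1LC3C in 14.6% and 39.2%. Of the chemokines, CXCL8 had 297.7 CPM in KRT14-high and 538.9 CPM in KRT14-low cells (0.55-fold) and CCL20 had 1022.8 and 1796.8 CPM (0.57-fold). CSF2, a cytokine that acts on myeloid cells, had 8.83 and 19.9 CPM (0.44-fold).

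A few of the lower calls rested on single barcodes. WFDC1 had 1.12 CPM in KRT14-high and 38.1 CPM in KRT14-low cells, and 98.4% of its KRT14-low UMIs came from 1 barcode. For SBSN, suprabasin, 1 barcode held 51.9% of the KRT14-low UMIs, for the unnamed LOC106503728 the 5 highest held 63.5%, and for the unnamed LOC102174044 1 barcode held 50.4% of the KRT14-high and 1 held 33.2% of the KRT14-low UMIs. CLDN10, APOA1 and MAP1LC3C were more evenly spread, with 3.15%, 3.39% and 4.55% of the KRT14-low UMIs in the highest barcode.

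Genes of mitosis were also lower. Of the 17 compared genes of the G2 and mitosis list 16 lay below 1, 10 of them at least 1.5-fold, with a median log2 fold of -0.64. Of all genes compared 1.3% were at least 1.5-fold lower. UBE2C, a ubiquitin carrier of the anaphase complex, had 46.8 CPM in KRT14-high and 86.4 CPM in KRT14-low cells (0.54-fold, 0.50 to 0.59). CENPF, a kinetochore protein, had 10.9 and 23.0 CPM (0.47-fold, 0.39 to 0.57), and CCNB1, the mitotic cyclin, had 12.6 and 21.0 CPM (0.60-fold). The cycling markers TOP2A, with 8.46 and 10.0 CPM (0.84-fold, 0.67 to 1.07), and MKI67, with 4.1 and 4.9 CPM, differed less. The direction of TOP2A changed in 7 of 19 alternatives. The shares of barcodes with a UMI lay closer: CCNB1 was in 17.3% of KRT14-high and 19.9% of KRT14-low barcodes, and PCNA of S phase in 40.7% and 46.0%. The 8 compared genes of the S phase list had a median log2 fold of -0.06, and none of them differed 1.5-fold. With other barcodes drawn at the same depth the G2 and mitosis median was -0.54. In a cluster led by CENPF, TOP2A and UBE2C 65 of 546 barcodes were KRT14-high (11.9%, 9.31% to 14.9%), against 14.9% in barcodes of the other clusters weighted to the same depth in bins of 1 log2 of total UMIs.

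Smaller shifts ran through other lists. Over all 5063 compared genes the median log2 fold was 0.002, with quartiles of -0.15 and 0.16. The share of all genes above 1 is not given here, so the counts below describe these lists only. All 11 compared genes of cholesterol synthesis lay above 1, with a median log2 fold of 0.22. MVK, mevalonate kinase, stood furthest out at 20.7 CPM in KRT14-high and 12.03 CPM in KRT14-low cells (1.72-fold). Of 24 genes of the actin cytoskeleton and focal adhesion 21 lay above 1 (median 0.20), and of 18 genes of oxidative phosphorylation 16 lay below (median -0.17), with NDUFC1 of complex I at 512.3 CPM in KRT14-high and 799.0 CPM in KRT14-low cells (0.64-fold). Of 81 ribosomal protein genes 70 lay above 1 (median 0.14). Milk and secretory genes did not move one way. SPP1, osteopontin, had 5624.5 CPM in KRT14-high and 5701.9 CPM in KRT14-low cells, WFDC2 had 11897.1 and 12695.5 CPM, and MSLN, mesothelin, had 424.3 and 426.1 CPM. The mucin MUC20 had 10.6 CPM in KRT14-high and 5.86 CPM in KRT14-low cells (1.82-fold, 1.40 to 2.36) and the milk fat globule protein MFGE8 had 10.3 and 13.7 CPM (0.75-fold, 0.61 to 0.92).

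Among genes of stratified epithelium, the cornified envelope protein IVL had 52.5 CPM in KRT14-high and 35.8 CPM in KRT14-low cells (1.47-fold) and the surface protein LY6D had 16.2 and 10.2 CPM (1.60-fold, but a log2 fold of -0.062 without barcodes that another table holds), whereas KRT10, a keratin of the layers above the basal one, had 50.4 and 56.9 CPM (0.89-fold). DSP, the desmosome protein desmoplakin, had 53.4 and 34.2 CPM (1.56-fold), and the tight junction claudins CLDN7 (0.82-fold) and CLDN1 (0.84-fold) lay below 1. Of 19 genes of epithelial junctions 12 lay above 1, with a median log2 fold of 0.07.

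Among the fibroblast and mesenchymal genes 3 of 28 reached 10 CPM, and none of these is limited to fibroblasts. S100A4, a calcium-binding protein, had 3698.1 CPM in KRT14-high and 2340.2 CPM in KRT14-low cells (1.58-fold), VIM had 757.8 and 622.1 CPM (1.22-fold) and FN1, fibronectin, had 912.2 and 752.0 CPM (1.21-fold). Targets of YAP, a coactivator that responds to cell shape, did not move one way: CTGF had 25.5 CPM in KRT14-high and 16.4 CPM in KRT14-low cells (1.56-fold) and F3 had 146.0 and 110.1 CPM (1.33-fold), but ANKRD1 had 600.5 and 908.1 CPM (0.66-fold). Of the Notch genes NOTCH3 stood furthest out, with 13.2 and 8.10 CPM (1.64-fold, 1.31 to 2.05). The immediate early gene FOS had 45.3 CPM in KRT14-high and 25.4 CPM in KRT14-low cells (1.78-fold), the glucose transporter SLC2A1 had 25.7 and 16.2 CPM (1.58-fold) and the glycolytic enzyme GAPDH had 1061.1 and 784.6 CPM (1.35-fold). The stress chaperone CRYAB had 128.1 and 189.5 CPM (0.68-fold), and the actin-binding peptide TMSB10 had 19364.5 and 23081.0 CPM (0.84-fold).

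The KRT14-high cells were not of 1 kind. When the CiMECs were clustered without KRT14 and the ribosomal protein genes, 8 clusters resulted. The largest, of 1776 barcodes, held 291 of the KRT14-high cells. A small cluster of 75 barcodes held 59 of them, so that 78.7% of this cluster (67.7% to 87.3%) was KRT14-high, against 16.4% in the largest cluster and 3.79% in a cluster of 1109. The 59 cells were 10.1% of all KRT14-high CiMECs. The cluster was given no cell type name. Its 8 leading genes were the collagens COL1A1, COL1A2 and COL3A1, the contractile genes ACTG2 and TPM2, and WFDC1, SPARC and CPXM1, yet none of its 59 KRT14-high cells had a COL1A1 UMI: 345 of the 349 COL1A1 UMIs in the CiMECs lay in 4 of its 16 other barcodes. The clusters were built from the same counts as the values that follow, so these describe the cluster and carry no test.

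Most basal genes were highest in these 59 cells. They held a median of 51 KRT14 UMIs (8 to 493), against 14 (8 to 276) in the 524 KRT14-high cells of the other clusters, although their median depth was lower, 19191 against 28723 UMIs. KRT5 was at 3189.7 CPM in the 59, 1100.7 CPM in the 524 and 564.5 CPM in the KRT14-low cells of the other clusters. COL17A1 was at 381.5, 48.5 and 26.4 CPM in the same order of sets, and ITGB4 at 126.6, 46.5 and 31.0 CPM. GJB2 was at 425.4 CPM in the 59 cells, 46.6 CPM in the 524 and 31.7 CPM in the KRT14-low cells.

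TP63, a transcription factor of basal epithelium, was found most often in this cluster. It had 34 UMIs in all CiMECs, 16 of them in 14 of the 59 cells. A further 6 UMIs lay in 5 of the 524 other KRT14-high cells and 7 in 7 of the 3217 KRT14-low cells outside the cluster. As shares of barcodes these were 23.7%, 0.954% and 0.218%, at median depths of 19191, 28723 and 14747 UMIs.

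Several genes of the main CiMEC population were low in the 59 cells. KRT8 was at 3120.2 CPM in them, 5872.9 CPM in the 524 other KRT14-high cells and 4167.1 CPM in KRT14-low cells, and KRT18 at 1554.3, 4257.2 and 3078.3 CPM. KRT19 differed less, at 2857.9, 3307.0 and 2464.0 CPM. WFDC2 stood at 3568.8 CPM in the 59 cells, against 12612.3 CPM in the 524, and SPP1 at 865.7 CPM against 6157.8 CPM. MSLN was at 64.6 and 457.8 CPM, HOPX, a homeodomain protein, at 18.2 and 317.6 CPM, and LY6G6C at 24.8 and 558.6 CPM. LOC102188015 followed the other KRT14-high cells and not this cluster: it was at 194.5 CPM in the 59 cells, 908.4 CPM in the 524 and 196.4 CPM in the KRT14-low cells.

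At matched depth 53 cells of each were compared, with medians of 20604 UMIs in the cluster and 21012 elsewhere. Of the 12 compared basal genes 9 lay above 1 in the cluster and 3 below. The share over all genes is not given here, so this count describes the 12 genes only. COL17A1 was 4.93-fold higher in the KRT14-high cells of the cluster than in those elsewhere (3.89 to 6.31), LAMA3 3.71-fold, CPXM1, a secreted carboxypeptidase-like protein, 10.8-fold and MMP9 8.70-fold. The 3 basal genes below 1 were ITGA3 with 174.6 CPM in the cluster and 202.2 CPM elsewhere (0.86-fold, 0.71 to 1.05), PLEC with 37.3 and 56.9 CPM (0.66-fold, 0.44 to 0.97) and EGFR, the EGF receptor, with 9 and 22 UMIs. ITGA6 was at 1.23-fold (0.85 to 1.79) and KRT19 at 1.09-fold. Of the contractile genes, ACTA2 was at 136.5 CPM in the cluster and 21.2 CPM elsewhere (6.43-fold) and TAGLN at 3690.4 and 1758.3 CPM (2.10-fold). SPP1 was at 0.16-fold (0.15 to 0.17) and WFDC2 at 0.33-fold. UBE2C was also low in the cluster, with 9 UMIs against 140. Ribosomal protein genes took 35.9% of the UMIs in the cluster and 29.9% elsewhere.

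**Figure D3:**
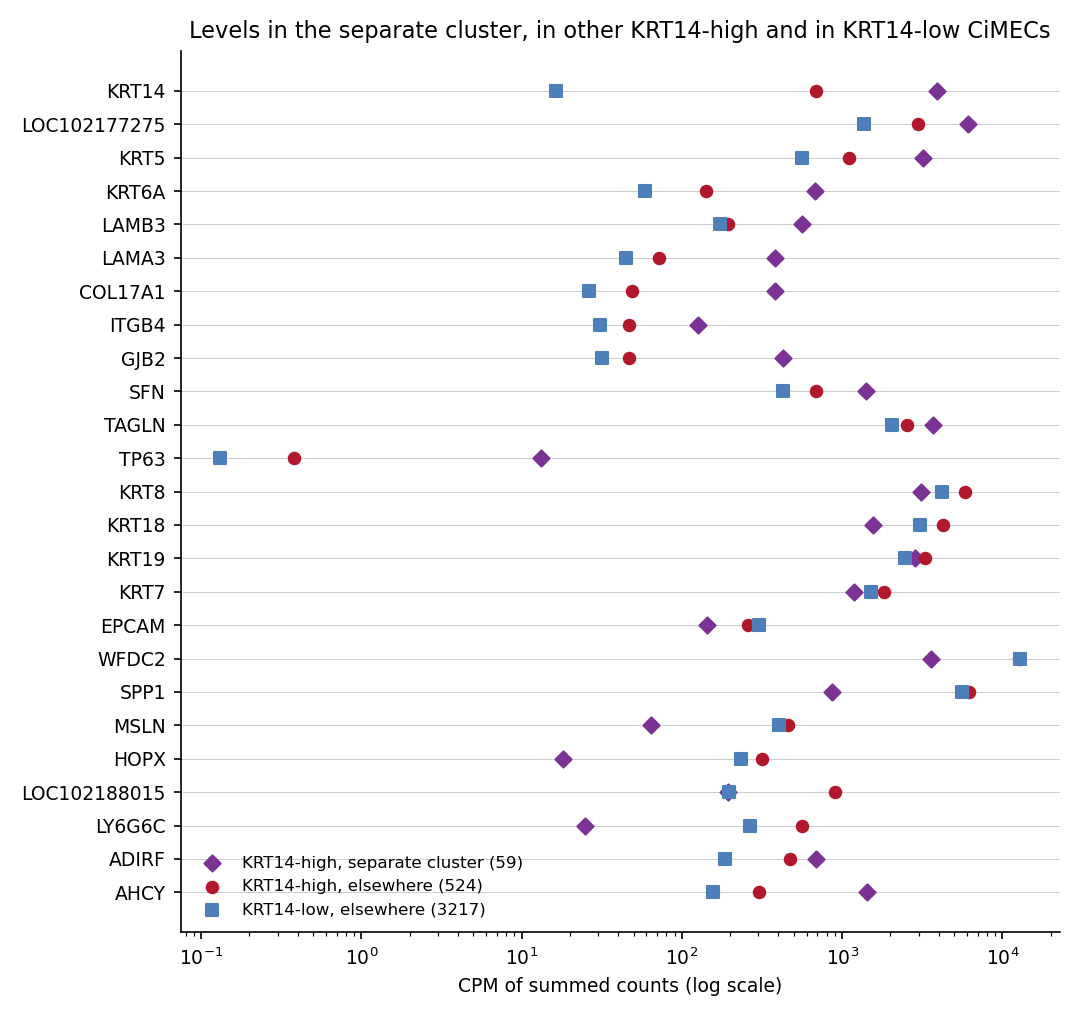
CPM of summed counts (x axis, log scale) of 25 genes (y axis) in the 59 KRT14-high cells of the separate cluster (purple diamonds), the 524 KRT14-high cells elsewhere (red circles) and the 3217 KRT14-low cells elsewhere (blue squares), all cells without depth matching. COL17A1 stood at 381.5, 48.5 and 26.4 CPM and WFDC2 at 3568.8 CPM in the cluster, while the other 2 sets lay on top of each other for WFDC2.

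Part of the comparison above rested on those 59 cells. Without the cluster, 508 KRT14-high and 508 KRT14-low cells remained after matching, and 16 of 5082 compared genes reached 2-fold or more on the higher side (0.315%) and 8 on the lower (0.157%), 13 and 6 of them also called with the cluster in. COL17A1 was then 2.04-fold higher (1.79 to 2.32) in place of 3.05-fold and LAMA3 1.86-fold in place of 2.71-fold. The keratins KRT5 (2.01-fold) and KRT6A (2.65-fold) moved less, and LOC102177275 came to 1.97-fold. LOC102188015 remained at 6.05-fold, ADIRF at 2.77-fold and LY6G6C at 2.09-fold. The 12 basal genes all stayed above 1, with a median log2 fold of 0.51 and 3 of them at 2-fold or more.

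Of the lower genes, MAP1LC3C (0.27-fold), CLDN10 (0.31-fold) and APOA1 (0.35-fold) hardly moved without the cluster. WFDC1 turned to 1.36-fold, LOC102174044 came to 0.54-fold, CSF2 to 0.64-fold, CENPF to 0.59-fold and UBE2C to 0.78-fold. The G2 and mitosis median was -0.38, with 5 of 15 genes at least 1.5-fold lower, against 55 of all 5082 genes (1.08%).

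The difference between the sets was graded with KRT14. With 215 cells drawn per class at matched depth, KRT5 was at 522.0 CPM in cells with 0 to 1 KRT14 UMIs, 716.1 CPM with 2 to 3, 787.8 CPM with 4 to 7, 909.4 CPM with 8 to 15 and 1608.2 CPM with 16 or more. COL17A1 went through 20.6, 30.4, 34.1, 46.4 and 94.4 CPM over the same classes, and LOC102188015 through 100.1, 123.1, 372.0, 680.0 and 1015.7 CPM. KRT8 stayed between 5293.8 and 5839.6 CPM. CCL20 ran down through 1725.0, 1629.9, 1498.0, 1040.8 and 1016.2 CPM and MAP1LC3C through 70.4, 41.6, 29.5, 23.9 and 9.24 CPM. UBE2C was highest in the class of 2 to 3 UMIs, at 88.0 CPM, and lowest at 16 or more, at 38.1 CPM.

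Without the separate cluster the same order held for KRT5, at 532.0, 676.3, 766.8, 888.9 and 1277.7 CPM (187 cells per class), and for COL17A1, at 21.0, 26.9, 34.0, 44.1 and 55.5 CPM. For LOC102188015 the class of 2 to 3 UMIs, at 107.4 CPM, was then below that of 0 to 1, at 152.4 CPM.

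**Figure D4:**
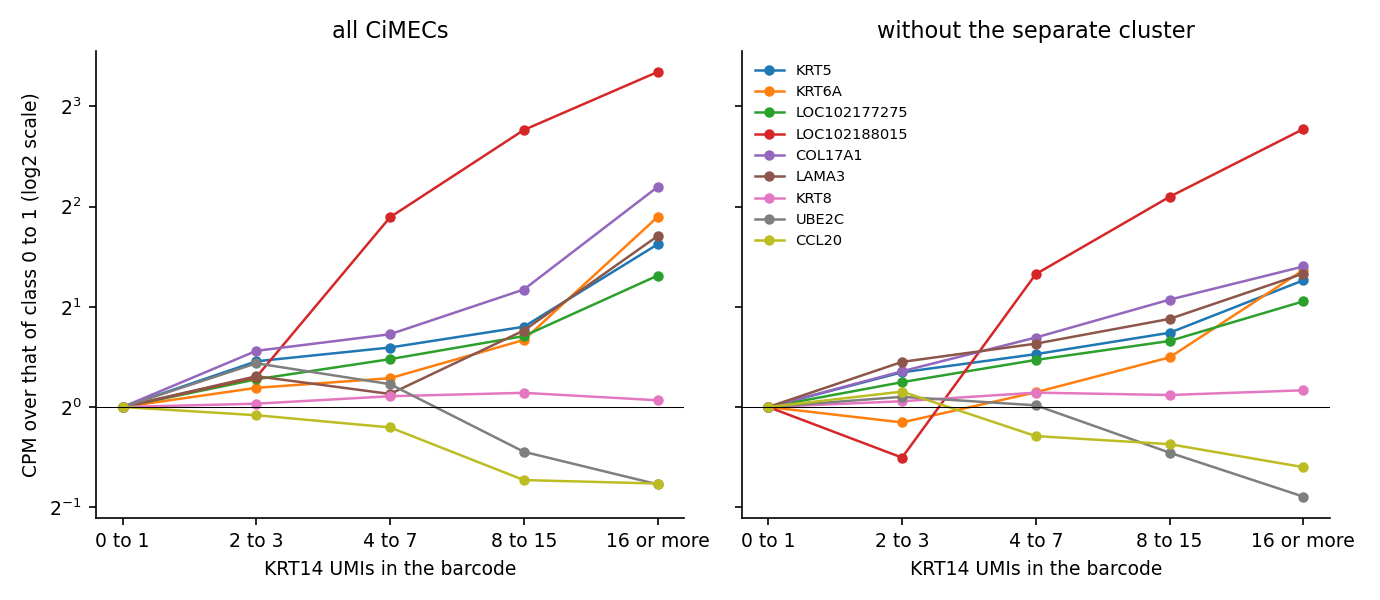
CPM of 9 genes relative to the class with 0 to 1 KRT14 UMIs (y axis, log2 scale) over 5 classes of KRT14 UMIs (x axis), in all CiMECs (left, 215 cells per class) and without the separate cluster (right, 187 cells per class), matched on total UMIs. The basal genes KRT5, COL17A1 and LAMA3 and LOC102188015 end above 1, KRT8 stays near 1, and UBE2C and CCL20 end below it.

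Over all 4861 CiMECs, the genes whose level per cell was most like that of KRT14 were LOC102177275 (Pearson r = 0.38), KRT5 (0.35), KRT6A (0.32), AHCY (0.31), LAMA3 (0.28) and SFN (0.27), followed by GAPDH, ADIRF, IGFBP6 and CRIP1 (0.24 to 0.25). The median over 1724 genes was 0.001. These are descriptions across cells of 1 library that differ in depth, and the values are low. SFN, stratifin, a 14-3-3 protein of stratified epithelium, was at 743.0 CPM in KRT14-high and 467.7 CPM in KRT14-low cells (1.59-fold).

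Beside the other groups, KRT14-high cells were much more frequent in BFRTV8d, where they made up 91.4% of barcodes with at least 500 genes (9275 of 10152), and rare in GMECs, where 27 of 5190 (0.520%) qualified. BFRTV4d had 48.4% and BFRTV0d 6.93%. Median depth differed between the tables, 9089 UMIs in BFRTV8d and 19424 in GMECs, so these shares are given side by side only. On a scale without ribosomal protein genes, KRT14-high CiMECs had 1282.8 CPM of KRT14 and BFRTV8d 4754.0 CPM, whereas KRT14-low CiMECs and GMECs had 22.2 CPM each. The values on this scale were not matched on depth.

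In several genes the KRT14-high CiMECs lay between those groups, and in others outside them. These values cover all cells of each set without depth matching, and KRT14-high CiMECs had a median of 27824 UMIs against 14773 in KRT14-low CiMECs. On the scale without ribosomal protein genes COL17A1 was at 100.7 CPM in KRT14-high CiMECs, 36.0 CPM in KRT14-low CiMECs, 294.0 CPM in BFRTV8d and 1.15 CPM in GMECs. KRT5 was at 1742.5, 767.4, 2764.1 and 761.0 CPM in the same sets. KRT8 was at 7921.6 CPM in KRT14-high CiMECs, 5662.0 CPM in KRT14-low CiMECs, 344.4 CPM in BFRTV8d and 8725.3 CPM in GMECs. In the same order KRT18 was at 5672.3, 4182.3, 112.5 and 7510.9 CPM and KRT7 at 2486.0, 2049.8, 1008.2 and 2968.6 CPM. KRT19, at 4569.6, 3348.3, 3358.4 and 8581.0 CPM, was in KRT14-high CiMECs nearer to BFRTV8d than to GMECs. At matched depth KRT8 differed 1.16-fold between KRT14-high and KRT14-low CiMECs. TP63 was at 1.80 CPM in KRT14-high CiMECs and 136.0 CPM in BFRTV8d, and DST at 5.33 and 96.0 CPM. ITGB4 was lower in KRT14-high CiMECs (72.8 CPM) than in BFRTV8d (190 CPM) and GMECs (79.2 CPM). So was ITGA6, at 49.7, 230.6 and 98.5 CPM in the same order. LAMA3 was higher in KRT14-high CiMECs (130.4 CPM) than in BFRTV8d (68.0 CPM) and GMECs (104.6 CPM). LAMB3 was at 305.5, 58.0 and 333.2 CPM, nearest to GMECs. LOC102188015 was at 1196.7 CPM in KRT14-high CiMECs, 1665.2 CPM in GMECs and 5.84 CPM in BFRTV8d. The tables are 1 library or pool per group, and the differences between groups were not tested.

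**Figure D5:**
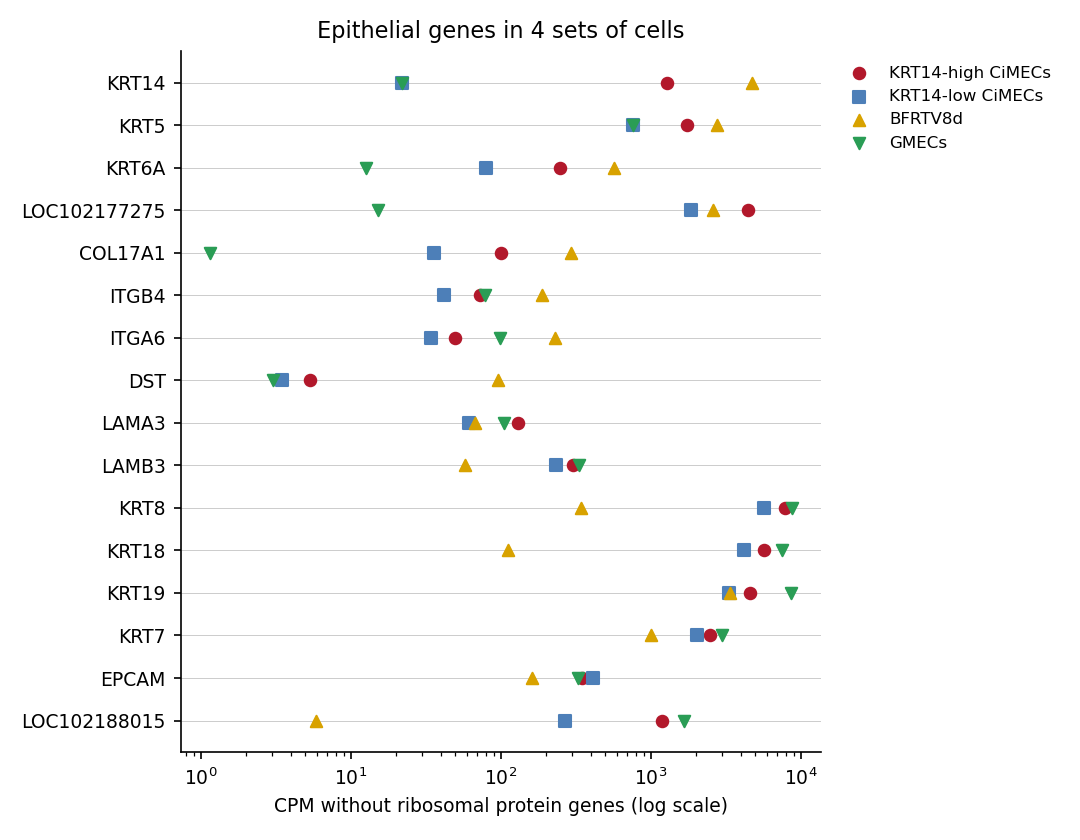
CPM without ribosomal protein genes (x axis, log scale) of 16 genes (y axis) in KRT14-high CiMECs (red circles), KRT14-low CiMECs (blue squares), BFRTV8d (yellow triangles) and GMECs (green triangles pointing down). All cells were used without depth matching. KRT14-high CiMECs lie near GMECs for KRT8, at 7921.6 CPM, but nearer to BFRTV8d for KRT19, at 4569.6 CPM. They lie between BFRTV8d and GMECs for COL17A1, at 100.7 CPM.

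The same split by KRT14 could be made in the other tables. In BFRTV8d, with 106 cells of each kind, KRT5 was 10.5-fold higher in KRT14-high cells and COL17A1 8.30-fold. The KRT14-low cells of that table were not the same kind of cell, since COL1A1 was at 20.7 CPM in KRT14-high and 519.7 CPM in KRT14-low BFRTV8d cells, and in BFRTV0d at 444.0 and 4746.3 CPM. The part of the fibroblast genes in those folds was not tested. In GMECs, with 26 cells of each kind, KRT5 was at 882.0 CPM in KRT14-high and 411.6 CPM in KRT14-low cells (2.14-fold, 1.90 to 2.42), ADIRF 2.60-fold and LOC102188015 3.80-fold higher, while COL17A1 was at 2.07 and 2.08 CPM, too few UMIs for a comparison (0.99-fold, 0.072 to 13.7). The luminal keratin KRT8 was higher there too, at 11245.7 CPM in KRT14-high and 6821.8 CPM in KRT14-low GMECs.

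Some barcode sequences occurred in more than 1 table. This held for 39 of the 583 KRT14-high CiMECs and 162 of the 3222 KRT14-low CiMECs. Of the 39, 15 were shared with BFRTV0d, where 0 were KRT14-high, and 11 with BFRTV8d, where 9 were KRT14-high. Among all BFRTV8d barcodes with at least 500 genes 91.4% were KRT14-high. BFRTV4d shared 8, of which 6 were KRT14-high there, and GMECs shared 5, of which 0 were. Without every barcode that another table holds, 25 genes were 2-fold or more above and 12 below, and the basal median was 0.62. No doublet could be marked: the caller scored all 4861 barcodes and marked 0, so it was taken not to have worked. Its median score was 0.083 in KRT14-high and 0.088 in KRT14-low cells.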

How the data were processed

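The authors deposited 1 table of UMI counts per group, made with Cell Ranger per the submitters' processing notes, which also name FastQC 0.10.1; the genome build is not given in the sources used here. The deposited counts are raw whole numbers per gene and barcode. The sample behind the CiMEC table held 5188 barcodes, 97203521 UMIs and 14050 genes, of which 13721 symbols matched the RefSeq gene table. Column names tie no barcode to a sample, so each table was treated as 1 sample.

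Barcodes with at least 500 genes were kept. Equal numbers of KRT14-high (at least 8 KRT14 UMIs) and KRT14-low (at most 1) barcodes were drawn at random (seed 1) in bins of 0.1 log2 of total UMIs, counts were summed and scaled to CPM, and folds got exact conditional binomial 95% intervals. Genes with 10 CPM in either set were compared. A gene at 0 was set to 3 counts for list medians. Named genes were the 12 highest and 12 lowest folds at 50 CPM or more, up to 3 highest and lowest of each list, the cell type markers and the 10 genes most like KRT14; the cluster genes, the genes below 50 CPM, SFN and the genes shown in single barcodes were chosen after their values were seen. Members and lists were chosen with earlier results of these data known. Clusters came from Leiden clustering in scanpy 1.11.5, doublet scores from Scrublet in scanpy, and all else from Python 3.11.15, numpy 2.4.6 and scipy 1.17.1. The folds and intervals were tested on simulated counts. Alternatives changed the limits, matching, scaling, filters and barcodes left out. Some genes are not reported here.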

Additional observations from a re-analysis of the deposited data

Results flagged for a closer look

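Some genes lay on opposite sides of 1 when cells were split by KRT14 in CiMECs and in another table. The differences between tables were not tested, and each table is 1 library or pool. In BFRTV8d, whose KRT14-low cells held more COL1A1 (519.7 CPM), CLDN10 was at 9.35-fold in KRT14-high cells (0.32-fold in CiMECs), NUSAP1, a spindle protein, at 2.41-fold (0.54-fold in CiMECs), LY6D at 0.48-fold (1.60-fold), CTGF at 0.46-fold (1.56-fold) and DDIT4 at 0.59-fold (1.51-fold). In GMECs, with 26 cells per set, LOC102174044 was at 9.82-fold (0.29-fold in CiMECs), LOC102182115 at 9.17-fold (0.49-fold), CXCL8 at 3.21-fold (0.55-fold) and DDIT4 at 0.35-fold (1.51-fold). The CiMEC fold of LOC102174044 is uncertain: 1 barcode held 50.4% of its KRT14-high and 1 held 33.2% of its KRT14-low UMIs. Its direction changed in 1 of 19 alternatives.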

How the results depend on the processing

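The number of KRT14-high CiMECs was 564 without the 5% of barcodes with the highest doublet score, an alternative chosen after seeing the data, and 579 with a minimum of 1000 genes. The genes at least 2-fold higher and lower, 24 and 13 as reported, were 52 and 23 with KRT14-high set at 16 UMIs or more, 148 and 100 at 30 or more (chosen after seeing the data), 11 and 6 with a minimum of 50 CPM, 189 and 96 with 1 CPM, and 111 and 66 with a fold of 1.5. Those lower were 21 with KRT14-low at 0 UMIs, 22 without the 2.5% of barcodes with the most UMIs, and 8 without the separate cluster (chosen after seeing the data). The basal median, 0.68 as reported, was 0.87 at 16 UMIs, 1.30 at 30, 1.24 with 50 CPM, 0.96 with 1 CPM and 0.51 without the cluster. It was above 0 in all 19 alternatives, and the G2 and mitosis median was below 0 in all 19, from -0.76 to -0.38. On the log2 scale 4 of the 37 genes at 2-fold or more changed direction, all of them lower and with their counts in few barcodes. SBSN turned to 1.17 when KRT14-high was set by the KRT14 share of UMIs and to 1.96 at 30 UMIs, where LOC102174044 turned to 0.68. LOC106503728 turned to 0.023 at 16 UMIs, 0.21 by the share, 0.19 without the highest doublet scores and 1.54 at 30 UMIs. WFDC1 turned to 1.00 at 16 UMIs, 0.41 with matching on detected genes too, 0.20 without barcodes that another table holds, 0.76 at 5000 UMIs or more (chosen after seeing the data) and 0.44 without the cluster. The causes were not tested. Of the 25 named genes between 1.5-fold and 2-fold, LY6D alone changed direction in any alternative, and of the 146 under 1.5-fold 62 did. No paired analysis was possible because the CiMEC comparison lies within 1 sample. The doublet caller marked no barcode, so only its scores gave an alternative. Counting error limits genes near 10 CPM, and the spread between cultures cannot be told from these counts.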
